A study of Mus musculus with 28 samples.

Results

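The comparison described here set pancreatic macrophages 3 days into recovery from experimental acute pancreatitis, given PBS, against the group labelled NC, and asked which genes still differed at that time when no lactate had been given. It compared 7 of the 28 libraries of the series, chosen by their labels alone: the 4 libraries labelled D3 AP+PBS and the 3 labelled NC. The series followed wild-type (WT) C57BL/6J mice through a caerulein-induced pancreatitis model with samples at days 0, 1 and 3, and part of the animals at days 1 and 3 received lactate in place of PBS. Macrophages were sorted from the pancreas by flow cytometry and their total RNA was sequenced. All 7 libraries share the genotype, the strain, the tissue and the labelled cell type. The D3 AP+PBS group carried the pancreatitis model and the PBS vehicle, while the labels do not explain NC, which is used here as a name only, nor state whether NC mice received any injection. The age and sex of the mice, the sorting gate and the number of mice behind a library were not given in the sources used here, so the p-values measure the spread between libraries, which may be technical. The libraries are written NC 1 to NC 3 and D3 1 to D3 4 below, with the replicate numbers of the labels.

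The pancreas normally holds macrophages that settle in the tissue and persist there, marked by receptors for hyaluronan, hemoglobin and mannose-bearing ligands, by bridging molecules for dead cells and by complement components. Caerulein, an analogue of the hormone cholecystokinin, over-stimulates the acinar cells that make digestive enzymes, and the damage draws in monocytes from the blood, which become macrophages within days and can take over part of the resident cells' place. Interferons, released by lymphocytes and other cells, switch macrophages to a state with high antiviral proteins, guanylate-binding proteins and antigen presentation.

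The values were FPKM, that is, fragment counts divided by transcript length and by library depth, which allows levels to be compared between genes. Between 33273303 and 38068953 fragments stood behind each of the 7 libraries. Tests were made with limma on log2(FPKM + 1) over 11960 genes, p-values were adjusted over all of these genes, and a gene is called higher or lower where the adjusted p was under 0.05. The spread behind these tests, and the filter that left 11960 genes, came from all 28 libraries of the 6 groups. A log2 fold change is the D3 AP+PBS mean minus the NC mean on that scale, and for genes with low values it is smaller than the change in FPKM itself. Intervals are 95% intervals of that difference, not adjusted for the number of genes.

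Beside the macrophage label, 12 defining genes of the lineage were looked at. None of them was at 0 in any of the 7 libraries. The same held for the measured T and NK cell, B and plasma cell, dendritic cell and fibroblast markers. A level above 0 therefore does not test the label. Lyz2, the lysozyme gene of myeloid cells, had the largest share of summed FPKM in all NC libraries, D3 1 and D3 4. In D3 2 the largest share was that of the acinar marker Ctrb1 (1.51%), and in D3 3 that of Eef1a1 (1.38%). The summed level of the 12 genes was 16447, 17267 and 17936 FPKM in the NC libraries and 10189, 8488, 8429 and 13191 FPKM in D3 1 to D3 4. All 4 day 3 libraries lay below all 3 NC libraries. Lyz2 made up the largest part of the mean sum in both groups. The mean log2(FPKM + 1) of the 12 genes, in which each counts alike, was 8.79 to 8.99 in NC and 7.70 to 8.37 at day 3. Of the 12 genes 9 were lower and 0 higher. With the mean T, NK and B cell marker level as a covariate, 2 were lower and 2 higher. The summed level of 21 T and NK cell markers was 534, 497 and 333 FPKM in NC and 1391, 1209.6, 1191 and 1019 FPKM at day 3, with no overlap and the day 3 libraries higher. Monocyte markers were also higher without overlap, at 411, 580.1 and 364 FPKM in NC and 1541, 812, 1211 and 1746 FPKM at day 3. Acinar markers overlapped, at 12282, 8209 and 7679 FPKM in NC and 3495, 26211, 8168 and 7336 FPKM at day 3, where D3 2 was the highest library. In RNA from a sorted population, fewer cells of a type and less RNA per cell cannot be told apart, so each difference below is one of the sorted RNA as a whole, and the part of these other cell types in it was not tested unless a value is given.

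**Figure D1:**
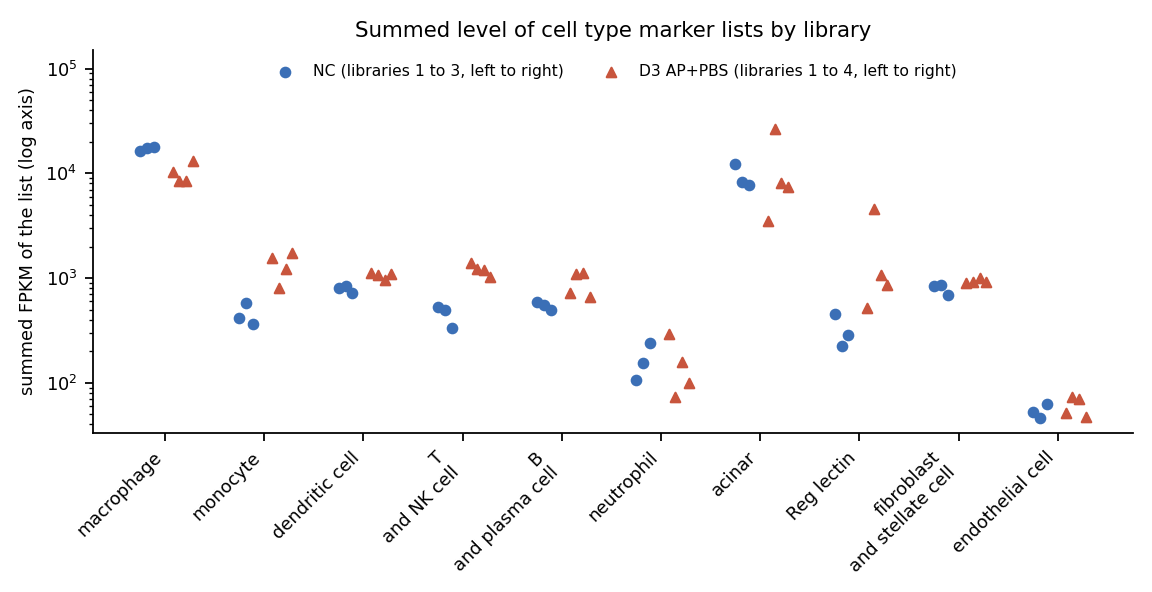
Summed FPKM (log axis) of 10 lists of cell type genes in each library, with NC as circles and D3 AP+PBS as triangles. The macrophage sums are lower and the monocyte and T and NK sums higher in all 4 day 3 libraries than in all 3 NC libraries, and D3 2 holds the highest acinar sum.

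After 3 days of recovery with PBS, 1236 of the 11960 genes (10.3%) were higher than in NC and 1299 (10.9%) were lower. These 2 shares are to be read beside each count of a list below. A log2 fold change of at least 1 was reached by 340 of the higher and 366 of the lower genes, and one of at least 2 by 58 and 55. Over all genes tested the median was 0.09 on the log2 fold change scale. The share of higher genes among those called was 48.8%, and with median-ratio scaling it was 33.7% (809 higher, 1593 lower). Without NC 3 the counts were 393 and 795, without NC 1 they were 676 and 952, without NC 2 the higher count was 800, and without D3 2 it was 820. With the mean T, NK and B cell marker level entered as a covariate, 552 genes were higher and 1216 lower. That covariate is the mean of the marker genes themselves, so for these markers a smaller difference under it follows from how it was made. In a fit on the 7 libraries alone, 1667 genes were higher and 1295 lower.

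The 15 lowest genes by log2 fold change, among called genes with a mean of at least 5 FPKM in either group and with symbols of the Gm and Rik series left out, included the receptors Lyve1, Cd209g, Cd209f, Timd4, Cd163, Mgl2 and Lilra5 (log2 fold changes -4.16, -3.66, -3.58, -3.40, -3.38, -3.15 and -3.09), most of them known from resident or alternatively activated macrophages. Also among them were the secreted proteins Ccn1, Mmp9, Lyz1, Retnla, Pf4 and Ccl24 (log2 fold changes -4.25, -3.56, -3.35, -3.28, -3.15 and -3.05) and the lipoxygenase gene Alox5 (log2 fold change -3.03). The largest adjusted p among these 14 was 2.1e-05. In none of the 14 did the groups overlap, which follows largely from their choice by fold change among called genes. The share of all genes tested without overlap is not given here or below. The 15 highest under the same limits fell into 4 kinds. Lectins and trypsinogens of the exocrine pancreas, which have near-identical copies that can share reads, were Reg3b, Prss1, Reg3a and Prss3 (log2 fold changes 4.39, 4.23, 3.97 and 3.35). Interferon-inducible genes were Slfn4, Ifi44, Ly6a, Gbp10, Ifit2, Ifit1bl1 and Irf7 (log2 fold changes 3.23, 3.15, 3.00, 2.89, 2.84, 2.75 and 2.69). Gzma and Gzmb (log2 fold changes 3.76 and 3.17) encode granzymes of killer lymphocytes, and Saa3 (log2 fold change 2.87) is an acute-phase gene, with LOC118568405 (log2 fold change 2.76) the remaining one. The largest adjusted p among these was 0.032. Saa3 overlapped between the groups, at 8.996, 181 and 6.03 FPKM in NC and 127, 222, 96.6 and 302 FPKM at day 3, and its log2 fold change was 4.35 without NC 2. The other calls named here held without each library in turn, and those lost were Slfn4, Ifit1bl1 and Irf7 without NC 3, Saa3 without NC 1 or NC 3 and Ifit2 without any 1 library but D3 2 and D3 3. Adding the lymphocyte covariate left Saa3 uncalled. Among the 14 lowest genes named no call was lost with 1 library left out.

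By level, the largest falls were those of Lyz2, from a mean of 10088 ± 660.0 (SD, n = 3) to 6208 ± 1386 FPKM (SD, n = 4), and Retnla, from 2623 ± 674 to 305 ± 153 FPKM. They were followed by Selenop, which encodes a selenium carrier, Fos, C1qa, C1qb, C1qc, Dusp1, Pf4 and the pancreatic lipase gene Pnlip. Among the largest rises, Tmsb10, an actin-binding thymosin, went from 722 ± 171 to 1435 ± 102 FPKM and the MHC class I gene H2-K1 from 1062 ± 97.2 to 1693 ± 193 FPKM. The others were Ly6a, Ly6c2, Irf7, the lymphocyte surface gene Cd52 and the ribosomal protein genes Rpl13a, Rpl12, Rps18 and Rps9. The log2 fold changes of the last 5 lay between 0.37 (Rps9) and 0.67 (Rpl12). Lost with 1 library left out were the calls of Selenop, C1qb, Ly6c2 and Irf7 without NC 3, H2-K1 without NC 1, NC 3 or D3 1, Rpl13a without NC 1, NC 3 or D3 2, Rps9 without NC 1, NC 3, D3 2 or D3 4, Cd52 without any 1 library but NC 2 and D3 3, Rpl12 without any 1 library but D3 1 and D3 4, Lyz2 without any 1 library but D3 4, Pnlip without any 1 library but D3 2 and Rps18 without any 1 library, while the calls of Retnla, Fos, C1qa, C1qc, Dusp1, Pf4, Tmsb10 and Ly6a held. Uncalled with the lymphocyte covariate were Lyz2, Selenop, Fos, C1qa, C1qb, C1qc, Cd52, Rpl13a, Rpl12, Rps18 and Rps9.

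**Figure D2:**
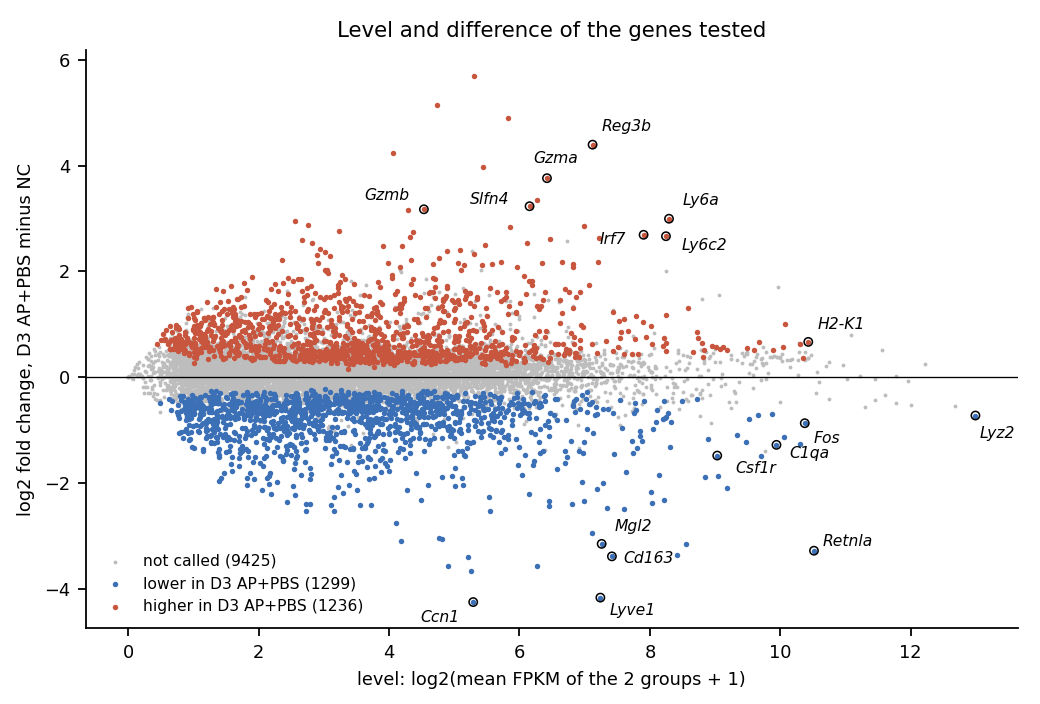
Log2 fold change of D3 AP+PBS against NC (vertical axis) over the mean level of both groups on the log2(FPKM + 1) scale (horizontal axis), with 1 point per gene tested and called genes in colour. Named genes are ringed: Lyve1 and Retnla lie far below 0, Reg3b and Gzma far above it, and the 3 unlabelled points above Reg3b carry symbols of the Gm and Rik series and were outside the rule for naming.

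Genes of resident tissue macrophages were lower almost throughout. Of 26 tested, 23 were lower and 0 higher, with a median log2 fold change of -2.15 against 0.09 for all genes. Lyve1, the hyaluronan receptor of perivascular macrophages, was at 307, 195 and 354 FPKM in NC 1 to NC 3 and at 21.9, 10.7, 11.1 and 16.7 FPKM in D3 1 to D3 4. The lowest NC library was thus far above the highest day 3 library. Timd4, which binds phosphatidylserine on dead cells and marks long-lived macrophages, read 61.4, 51.2 and 87.9 FPKM in NC and 6.37, 3.99, 5.62 and 5.29 FPKM at day 3 (log2 fold change -3.40, SE 0.27, adjusted p = 2.3e-09). Cd163, the receptor for hemoglobin bound to haptoglobin, read 334, 226 and 372 FPKM in NC and 42.9, 27.6, 18.8 and 28.2 FPKM at day 3 (log2 fold change -3.38, SE 0.47, adjusted p = 1.1e-05). Neither gene overlapped between the groups. Cd209f, a C-type lectin gene, read 113, 148 and 159.5 FPKM in NC and 8.55, 18.9, 9.06 and 8.86 FPKM at day 3, with D3 2 the highest of the 4. Its reads may be split with other Cd209 genes of nearly the same sequence.

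Mrc1, Gas6, Cd36 and Igf1 were lower as well. Mrc1, the mannose receptor, read 379, 353 and 541 FPKM in NC and 96.0, 90.6, 82.5 and 99.2 FPKM at day 3 (log2 fold change -2.17, SE 0.34, adjusted p = 6.1e-05). Gas6, the bridge between phosphatidylserine and the TAM receptors, read 198, 179.6 and 257 FPKM in NC and 39.8, 47.2, 40.7 and 35.5 FPKM at day 3 (log2 fold change -2.34, SE 0.31, adjusted p = 8.0e-06). Cd36, a scavenger receptor for oxidised lipoproteins, read 121, 128 and 193 FPKM in NC and 24.9, 24.3, 29.0 and 25.4 FPKM at day 3 (log2 fold change -2.44, SE 0.26, adjusted p = 1.8e-07). The day 3 values of these 3 genes were close together and all lay below the NC range. The growth factor gene Igf1 read 14.8, 14.2 and 26.1 FPKM in NC and 4.80, 5.90, 5.57 and 3.27 FPKM at day 3 (log2 fold change -1.69, SE 0.32, adjusted p = 5.0e-04). Maf, a transcription factor of mature macrophages, had a log2 fold change of -1.20. Folr2, Stab1, F13a1, Fcna, Cbr2 and Ednrb, further genes of resident cells, had log2 fold changes of -1.85, -2.46, -2.37, -1.99, -2.32 and -2.14 (largest adjusted p = 0.0036 among these and Maf). The 3 members that were not called were Pltp (log2 fold change -0.86, adjusted p = 0.053), the complement receptor Vsig4 (log2 fold change -0.63, adjusted p = 0.24) and the chemokine Ccl8 (log2 fold change 0.70, adjusted p = 0.35). With the lymphocyte level as a covariate 19 of the 26 were lower, and with any 1 library left out 22 or 23 were.

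**Figure D3:**
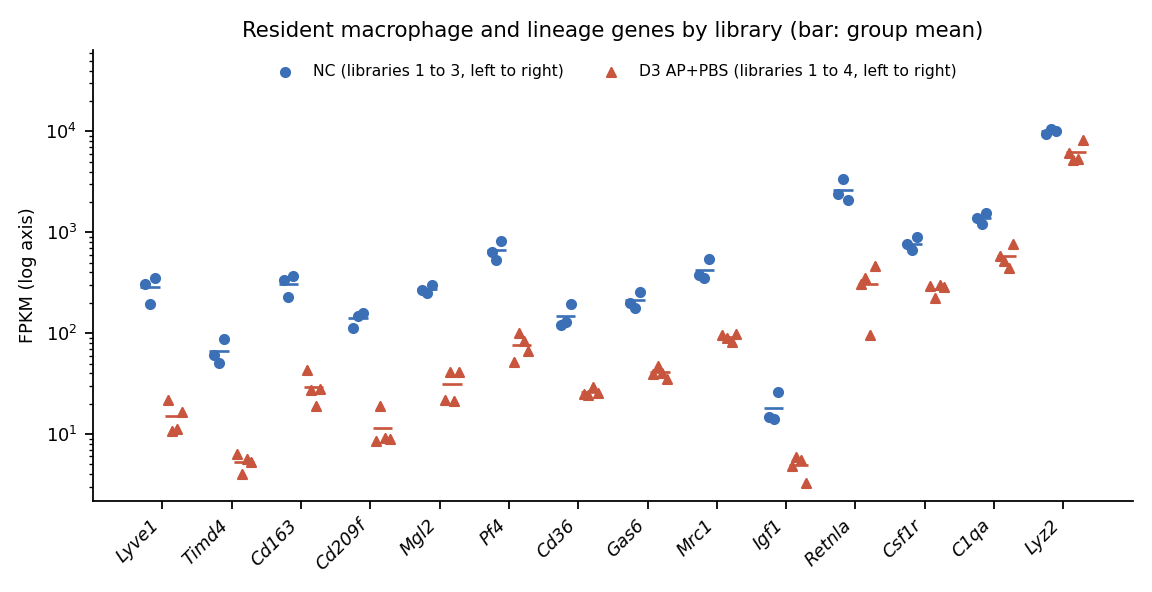
FPKM (log axis) of 14 resident and lineage genes in each NC library (circles) and each D3 AP+PBS library (triangles), with bars at the group means. The NC and day 3 points do not overlap for any of the 14 genes, and the gap between the nearest NC and day 3 points is widest for Lyve1 and Timd4 and narrowest for Lyz2.

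Genes shared by all macrophages were lower too, by less. Among 17 lineage genes 11 were lower and 3 higher (median -0.76). Csf1r, through which the macrophage growth factor M-CSF acts, read 758, 663 and 889.5 FPKM in NC and 296, 221, 299.9 and 285 FPKM at day 3 (log2 fold change -1.48, SE 0.20, adjusted p = 1.1e-05). Adgre1, the macrophage adhesion receptor commonly used for sorting, read 302, 275 and 402 FPKM in NC and 157, 114, 122 and 175 FPKM at day 3 (log2 fold change -1.20, SE 0.27, adjusted p = 0.0023). Both were lower in every day 3 library than in every NC library. Cd14, the co-receptor for lipopolysaccharide, the fractalkine receptor Cx3cr1, the myeloid factors Cebpa and Cebpb, and Cd68 had log2 fold changes of -1.21, -1.07, -0.97, -0.94 and -0.76. Members that went the other way were Irf8, a factor of monocytes and dendritic cells, at 87.3, 94.1 and 93.6 FPKM in NC and 142, 150.0, 169.5 and 137 FPKM at day 3 (log2 fold change 0.70), Ptprc, the pan-leukocyte phosphatase CD45 (log2 fold change 0.62), and Nr1h3, the oxysterol receptor LXR alpha (log2 fold change 1.04). Spi1, encoding the master factor PU.1, read 175, 194 and 191 FPKM in NC and 148, 143, 183 and 179 FPKM at day 3, and its difference was not called (log2 fold change -0.20, interval -0.54 to 0.14). Calls lost with 1 library left out were those of Cd14, Cx3cr1 and Ptprc without NC 3, Cebpb without NC 1, NC 2 or D3 2, Cd68 without NC 2, NC 3 or D3 2 and Nr1h3 without any 1 library but D3 2 and D3 3, and the calls of Csf1r, Adgre1, Cebpa and Irf8 held. Entered as a covariate, the lymphocyte level ended the calls of Adgre1, Cd14, Cx3cr1, Cebpa, Cebpb, Cd68, Ptprc and Nr1h3. The lower count was 7 without NC 2 or D3 2 and 6 without NC 3. With the lymphocyte level as a covariate, 2 of the 17 were lower and 2 higher.

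Genes of alternative activation, the state that interleukins of type 2 immunity induce, split into members far below NC and members that did not pass the test. Of 19 tested, 8 were lower and 0 higher. Retnla, a secreted protein induced through STAT6, read 2375, 3386 and 2108 FPKM in NC and 304, 356, 96.8 and 462 FPKM at day 3 (log2 fold change -3.28, SE 0.41, adjusted p = 2.5e-06). Mgl2, a galactose lectin, read 266, 252 and 302 FPKM in NC and 21.9, 40.9, 21.3 and 41.2 FPKM at day 3, and the eosinophil-attracting chemokine Ccl24 read 51.2, 41.7 and 53.8 FPKM in NC and 5.28, 5.80, 4.29 and 4.65 FPKM at day 3. For all 3 the groups were far apart, and D3 3 was the lowest day 3 library for Retnla. The ribonuclease gene Ear2, the prostaglandin-degrading enzyme Hpgd and the transcription factor Klf4 had log2 fold changes of -2.11, -2.21 and -1.22 (largest adjusted p = 5.0e-04). The receptor and the signal carrier of the pathway were not called: Il4ra read 37.1, 38.7 and 37.6 FPKM in NC and 42.7, 33.6, 45.4 and 37.8 FPKM at day 3, and Stat6 had a log2 fold change of -0.12 (interval -0.34 to 0.09). Arg1, the arginase of alternatively activated and wound macrophages, read 1.37, 16.6 and 0.958 FPKM in NC and 30.2, 5.58, 4.93 and 20.4 FPKM at day 3. NC 2 stood above the other 2 NC libraries and the groups overlapped, and the difference was not called (log2 fold change 1.55, interval -0.13 to 3.23). Among the 6 called genes named here no call was lost with 1 library left out.

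Complement genes moved in both directions. C1qa, C1qb and C1qc, whose products form the recognition molecule of the classical pathway, were all lower: C1qa read 1399, 1198 and 1556 FPKM in NC and 588, 519.7, 439 and 772 FPKM at day 3 (log2 fold change -1.28, SE 0.33, adjusted p = 0.0078). None of the 3 overlapped between the groups. Further lower members were C4b, C2, the positive regulator Cfp and the anaphylatoxin receptor C5ar1 (log2 fold changes -1.62, -1.30, -1.11 and -1.66), of which C4b can share reads with a near-identical copy. Cfb, the protease of the alternative pathway and an interferon-inducible gene, was higher, at 43.2, 68.7 and 35.4 FPKM in NC and 291, 106, 175 and 409 FPKM at day 3 (log2 fold change 2.18, SE 0.66, adjusted p = 0.021). So were C3, the central component (log2 fold change 1.03), and the inhibitors Serping1 and Cd55 (log2 fold changes 1.80 and 1.24). In all 9 of 18 were lower and 4 higher. The higher count was 1 with the lymphocyte covariate and 2 with no filter on low values, median-ratio scaling, acinar and Reg genes left out or a pseudocount of 0.1. It was 0 without NC 1, 1 without NC 3, D3 1 or D3 4 and 2 without D3 3. The lower count was 5 with the lymphocyte covariate, where C1qa, C1qb and C1qc had log2 fold changes of -0.50, -0.34 and -0.75 and none of the 3 was called. With 1 library left out the calls of C1qa, C4b, C2, Cfp and C5ar1 held, and those lost were Cd55 without NC 1, Cfb without NC 1, NC 3, D3 1 or D3 4, C3 without any 1 library but NC 2 and D3 2 and Serping1 without any 1 library. The lymphocyte covariate ended the calls of C1qa, Cfp, C3, Serping1 and Cd55.

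Among scavenger and efferocytosis receptors 10 of 19 were lower and none higher, most of them named above. Colec12, a collectin scavenger receptor, read 28.6, 19.96 and 38.4 FPKM in NC and 4.41, 3.62, 2.96 and 2.44 FPKM at day 3 (log2 fold change -2.76, SE 0.35, adjusted p = 2.9e-06), and Lrp1 and Itgb5 had log2 fold changes of -0.999 and -1.01. Mertk, the main receptor for Gas6 on macrophages, read 15.2, 10.5 and 15.8 FPKM in NC and 14.2, 5.93, 5.65 and 15.6 FPKM at day 3, overlapped and was not called (log2 fold change -0.49, interval -1.10 to 0.12). Lysosomal genes were mostly uncalled, with 8 lower and 2 higher of 31. The lower ones included the glycosidases Hexa and Man2b1, the peptidase Tpp1 and the lysosomal transcription factor Tfe3 (log2 fold changes -0.85, -0.69, -0.83 and -0.70). Of 15 cathepsin and cystatin genes 3 were lower and 1 higher: Ctsf read 24.0, 17.9 and 21.9 FPKM in NC and 3.37, 4.33, 2.53 and 2.67 FPKM at day 3 (log2 fold change -2.41, SE 0.32, adjusted p = 7.0e-06), while the abundant Ctsb, Ctsd and Ctss were not called (log2 fold changes -0.46, -0.04 and 0.20). The calls of Colec12, Man2b1, Tpp1, Tfe3 and Ctsf held without each library in turn, and those lost were Lrp1 without NC 3 or D3 2, Itgb5 without NC 1 or NC 3 and Hexa without NC 1, NC 3 or D3 3. Adding the lymphocyte covariate left Lrp1, Itgb5, Hexa and Man2b1 uncalled. The cathepsin count of lower genes was 1 without NC 1, NC 2, NC 3, D3 1, D3 2 or D3 3, and the lysosomal one was 4 without NC 1 or D3 2, 5 without NC 2 or D3 1 and 3 without NC 3, and with the lymphocyte level as a covariate 2 were lower and 6 higher.

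Enzymes and transporters of iron handling, another task of resident macrophages, were lower in 8 of 17 cases and higher in none. Slc40a1, ferroportin, the only known cellular iron exporter, read 14.8, 11.1 and 21.4 FPKM in NC and 1.90, 4.90, 8.50 and 2.17 FPKM at day 3 (log2 fold change -1.77, SE 0.36, adjusted p = 9.5e-04). Blvrb, a biliverdin reductase, read 73.9, 73.5 and 85.7 FPKM in NC and 23.6, 29.8, 33.4 and 32.8 FPKM at day 3 (log2 fold change -1.36, SE 0.24, adjusted p = 2.4e-04). Both were lower in every day 3 library. The metal transporter Slc11a1, the heme transporter Slc48a1 and Hfe had log2 fold changes of -0.95, -0.77 and -0.98. The ferritin chains Fth1 and Ftl1 (log2 fold changes -0.41 and -0.43) and heme oxygenase Hmox1 (log2 fold change -0.77, adjusted p = 0.053) were not called. Enzymes that make prostaglandins and leukotrienes were lower in 8 of 19 cases and higher in none. Alox5, which starts leukotriene synthesis, read 42.3, 37.7 and 62.4 FPKM in NC and 4.63, 3.93, 6.55 and 4.35 FPKM at day 3 (log2 fold change -3.03, SE 0.31, adjusted p = 9.7e-08). Ptgs1, the constitutive cyclooxygenase, read 18.6, 21.9 and 25.0 FPKM in NC and 5.87, 5.40, 4.61 and 6.68 FPKM at day 3 (log2 fold change -1.78, SE 0.20, adjusted p = 4.7e-07). The inducible cyclooxygenase Ptgs2 overlapped, at 11.3, 13.97 and 11.9 FPKM in NC and 13.8, 16.3, 16.7 and 26.5 FPKM at day 3. Ltc4s, Tbxas1 and Hpgds, which act further down, had log2 fold changes of -1.44, -0.94 and -1.19. Lost with 1 library left out were the calls of Ltc4s and Hpgds without NC 3, while the calls of Slc40a1, Blvrb, Slc11a1, Slc48a1, Hfe, Alox5, Ptgs1 and Tbxas1 held. Uncalled with the lymphocyte covariate were Hfe, Ltc4s and Hpgds. The iron count stayed within 1.5 times, and the eicosanoid count was 5 without NC 3 and 4 with the lymphocyte covariate.

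Lipid genes gave few calls, in both directions. In a list of lipid-associated macrophage genes 2 of 16 were higher and 2 lower, beside 10.3% and 10.9% of all genes. The median of that list was 0.09, as over all genes tested. With the lymphocyte covariate the 2 counts were 4 and 0 and the median was 0.72, and with median-ratio scaling they were 1 and 2 and it was -0.01. They were 1 and 0 with no filter on low values, 3 and 1 with a pseudocount of 0.1 and 1 and 2 (of 14 genes left) with a filter at 5 FPKM. The 2 counts were 0 and 1 without NC 1 or D3 1, 0 and 0 without D3 2, 1 and 0 without NC 2 or NC 3, 1 and 2 without D3 3 and 2 and 0 without D3 4. Spp1, osteopontin, read 11.0, 14.6 and 8.02 FPKM in NC and 54.1, 39.0, 31.8 and 30.4 FPKM at day 3 (log2 fold change 1.70, SE 0.55, adjusted p = 0.029), with no overlap. Its log2 fold change was 3.12 with the lymphocyte covariate. Spp1 is also made by duct cells and is 1 of 10 duct markers, whose summed level, Spp1 included, was 20.3, 23.6 and 15.9 FPKM in NC and 67.6, 94.9, 57.3 and 45.4 FPKM at day 3, with no overlap. Of 7 duct markers tested 3 were higher, Spp1, the mucin Muc1 and the keratin Krt18, the last at 2.16, 1.93 and 1.30 FPKM in NC and 3.67, 21.0, 8.31 and 5.60 FPKM at day 3. Krt19, the keratin that commonly defines duct cells, overlapped at 0.713, 1.41 and 1.45 FPKM in NC and 0.934, 2.11, 1.47 and 1.42 FPKM at day 3, and Cftr was at 0 in D3 1 and under 0.1 FPKM in the other 6 libraries. The count of higher duct markers was 1 with the lymphocyte covariate and 5 with the acinar covariate, and 0 without NC 3 or D3 2, and their part in the Spp1 difference was not tested. Trem2, the lipid receptor that defines such cells, read 35.2, 40.0 and 47.1 FPKM in NC and 33.7, 46.9, 45.3 and 34.9 FPKM at day 3, so the groups overlapped and the interval of the difference was -0.77 to 0.72. Apoe, with means of 3486 FPKM in NC and 2771 FPKM at day 3, was not called (log2 fold change -0.34, and 0.67 with the lymphocyte covariate, also uncalled). Abcg1, a cholesterol exporter, and Mylip, which degrades the LDL receptor, both targets of LXR, were higher (log2 fold changes 1.05 and 0.86), as was the receptor gene Nr1h3. All 18 genes of cholesterol synthesis had negative values, with a median of -0.40, but 1 alone, the sterol sensor partner Insig1 (log2 fold change -0.63), was called. That count was 0 without D3 1, D3 4 or any 1 NC library, 2 without D3 2 and 3 without D3 3. It was 18 with the lymphocyte covariate, 0 with no filter on low values or a pseudocount of 0.1, 8 with quantile normalization, 5 with median-ratio scaling or the 7 libraries alone and 2 with the acinar covariate. Calls lost with 1 library left out were those of Abcg1 without NC 3 and Spp1 without NC 1, NC 3, D3 1 or D3 2, and the call of Mylip held.

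Part of the genes of inflammatory monocytes, which leave the blood for injured tissue, were higher. Of 21 tested 6 were higher and 1 lower. Ly6c2, the surface antigen of classical monocytes, read 94.0, 106 and 40.3 FPKM in NC and 681, 219, 451 and 750.1 FPKM at day 3 (log2 fold change 2.67, SE 0.70, adjusted p = 0.0089). Ms4a4c read 41.2, 50.3 and 25.9 FPKM in NC and 229.8, 103, 129 and 277 FPKM at day 3 (log2 fold change 2.15, SE 0.56, adjusted p = 0.0082). In both genes the groups did not overlap, and D3 2 was the lowest day 3 library. Plac8 and Slfn4 had log2 fold changes of 1.74 and 3.23, and Ly6c1, which shares much sequence with Ly6c2, had a log2 fold change of 1.76. Several of these genes also respond to interferons. Ccr2, the receptor that brings monocytes out of the marrow, read 135, 227 and 148 FPKM in NC and 214, 214, 201 and 241 FPKM at day 3 and was not called (log2 fold change 0.39, interval -0.11 to 0.89). Fn1, fibronectin, was lower, at 220.1, 338 and 177 FPKM in NC and 83.1, 31.7, 83.1 and 51.8 FPKM at day 3 (log2 fold change -2.004, SE 0.40, adjusted p = 9.2e-04). The higher count was 2 without NC 3. With 1 library left out the calls of Ly6c1 and Fn1 held, and those lost were Ly6c2, Ms4a4c and Slfn4 without NC 3 and Plac8 without NC 1, NC 3 or D3 4.

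Among inflammatory mediators most of the best known were uncalled. Il1b read 134, 139.5 and 119 FPKM in NC and 128, 216, 207 and 182 FPKM at day 3, with an interval of -0.41 to 1.33 for the difference, and Tnf, Il6 and Il10 had log2 fold changes of -0.28, 0.20 and 0.00, none of them called. Among 18 cytokines and antagonists 3 were higher, Ifng (log2 fold change 1.77), Il12b (log2 fold change 1.03) and Lif (log2 fold change 0.78), and 1 was lower, the B cell survival factor Tnfsf13b, at 6.39, 5.08 and 8.77 FPKM in NC and 1.93, 1.52, 1.47 and 1.39 FPKM at day 3 (log2 fold change -1.57, SE 0.15, adjusted p = 5.6e-08). The count of higher cytokines, beside 10.3% of all genes, was 1 with the lymphocyte covariate, 8 with the 7 libraries alone and 6 with the acinar covariate, and 1 without NC 3. Ifng, the cytokine of T and NK cells that activates macrophages, read 1.42, 1.06 and 0.948 FPKM in NC and 6.28, 4.54, 8.56 and 6.31 FPKM at day 3, so every day 3 library was higher. Among 24 chemokines 6 were lower and 1 higher. Ccl2, the main monocyte attractant, read 368, 334 and 231 FPKM in NC and 103, 90.9, 109.9 and 156 FPKM at day 3 (log2 fold change -1.43, SE 0.37, adjusted p = 0.0081). Ccl6, Ccl7 and Ccl9 had log2 fold changes of -1.08, -1.23 and -1.02, and the neutrophil attractant Cxcl2 was not called (log2 fold change -0.89, interval -1.97 to 0.18). Cxcl9 and Cxcl10, which interferon gamma induces and which attract T cells, had large but uncalled values: Cxcl9 read 10.6, 19.9 and 9.35 FPKM in NC and 80.8, 21.5, 34.3 and 141 FPKM at day 3 (adjusted p = 0.093), and Cxcl10 read 26.2, 46.6 and 15.8 FPKM in NC and 222, 90.0, 126 and 288 FPKM at day 3 (adjusted p = 0.058). Xcl1, a chemokine of killer lymphocytes, was the 1 higher member (log2 fold change 1.94). The calls of Ifng, Tnfsf13b, Ccl2 and Xcl1 held without each library in turn, and those lost were Lif without NC 3, Il12b without any 1 library but D3 2 and D3 3 and Ccl6, Ccl7 and Ccl9 without any 1 library but D3 4. Entered as a covariate, the lymphocyte level ended the calls of Ifng, Il12b, Lif, Ccl2, Ccl6, Ccl7 and Ccl9. The count of lower chemokines, beside 10.9% of all genes, was 3 without NC 1, NC 2, NC 3, D3 1, D3 2 or D3 3. It was 3 with no filter on low values and 10 with the 7 libraries alone.

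Interferon-stimulated genes were higher, with a count that rested in part on single libraries. Of 30 genes known to respond to type I interferon, 21 were higher and none lower, all 30 had positive values and the median log2 fold change was 1.73. The promoters of such genes often hold the interferon-stimulated response element, here searched by its core, GAAA followed by any 2 bases and GAAA, on both strands in RefSeq promoter windows of GRCm38.p6, which run from 250 bases before to 50 after a start. The core was in 3.44% of all 32851 windows. A window was at hand for 21 of the 30 genes and 11 of these (52.4%) held the core. So did 10 of 11 interferon-induced GTPase genes (90.9%) and 4 of 17 genes of MHC class I presentation (23.5%). The core was also in 2 of 13 cytotoxic lymphocyte genes (15.4%) and 1 of 22 resident macrophage genes (4.55%). Among all tested genes with a window it was in 397 of 9511 (4.17%). These shares describe the windows alone. The windows of the 4 listed genes with the smallest p that hold the core are printed 5′ to 3′, each on the minus strand, to show where it lies, with matches to the core in capitals:
Oas3, chr5:120777610-120777909: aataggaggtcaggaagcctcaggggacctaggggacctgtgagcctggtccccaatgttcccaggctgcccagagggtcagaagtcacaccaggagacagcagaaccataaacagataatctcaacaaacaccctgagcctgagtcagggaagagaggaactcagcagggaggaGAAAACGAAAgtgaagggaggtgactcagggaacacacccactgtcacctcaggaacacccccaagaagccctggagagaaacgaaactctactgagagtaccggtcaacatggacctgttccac
Trim30a, chr7:104446076-104446375: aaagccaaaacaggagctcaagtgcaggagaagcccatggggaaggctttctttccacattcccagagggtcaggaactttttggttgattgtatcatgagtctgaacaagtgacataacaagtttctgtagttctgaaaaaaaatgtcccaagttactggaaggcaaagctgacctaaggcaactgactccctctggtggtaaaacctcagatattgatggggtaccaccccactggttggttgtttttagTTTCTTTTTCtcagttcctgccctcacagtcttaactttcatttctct
Ifi205, chr1:174031706-174032005: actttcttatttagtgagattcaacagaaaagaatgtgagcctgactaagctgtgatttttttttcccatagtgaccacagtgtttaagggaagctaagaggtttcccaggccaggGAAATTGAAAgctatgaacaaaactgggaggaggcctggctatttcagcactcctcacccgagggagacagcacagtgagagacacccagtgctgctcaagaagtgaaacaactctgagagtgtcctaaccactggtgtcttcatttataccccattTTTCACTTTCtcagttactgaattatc
Isg15, chr4:156200769-156201068: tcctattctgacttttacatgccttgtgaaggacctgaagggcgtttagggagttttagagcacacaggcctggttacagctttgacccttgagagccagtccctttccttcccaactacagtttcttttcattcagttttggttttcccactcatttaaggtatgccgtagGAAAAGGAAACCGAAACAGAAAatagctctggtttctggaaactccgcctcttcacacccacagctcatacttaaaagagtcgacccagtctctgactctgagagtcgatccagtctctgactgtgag
Oas3 holds 1 match, beginning 75 bases before the start. Isg15 holds 3 overlapping matches, beginning 78, 72 and 66 bases before it. Ifi205 holds 1 match 134 bases before and 1 on the other strand 23 bases after the start, and Trim30a, in 1 of its 2 windows, holds 1 on the other strand 2 bases after it.

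These 4 genes were higher in every day 3 library than in every NC library. Oas3, a sensor enzyme for double-stranded RNA, read 13.9, 15.8 and 6.73 FPKM in NC and 96.4, 36.0, 74.8 and 89.6 FPKM at day 3 (log2 fold change 2.50, SE 0.67, adjusted p = 0.010). Isg15, a ubiquitin-like modifier, read 39.1, 49.96 and 27.9 FPKM in NC and 319, 147, 193 and 375 FPKM at day 3 (log2 fold change 2.64, SE 0.83, adjusted p = 0.025). In both, NC 3 was the lowest of the NC libraries, and D3 2 was the lowest day 3 library. Trim30a, a ubiquitin ligase, had a log2 fold change of 1.46, and Ifi205, a DNA sensor with close copies whose reads it may share, had a log2 fold change of 2.19. Irf7, the transcription factor that amplifies interferon production, read 78.9, 69.2 and 37.8 FPKM in NC and 528, 199, 414 and 519 FPKM at day 3 (log2 fold change 2.69, SE 0.71, adjusted p = 0.0091). Ifit2, which binds foreign RNA, read 13.2, 13.97 and 9.08 FPKM in NC and 152, 45.6, 74.6 and 133 FPKM at day 3 (log2 fold change 2.84, SE 0.93, adjusted p = 0.032). Ifi44 read 3.14, 3.18 and 1.56 FPKM in NC and 43.9, 14.98, 23.3 and 55.4 FPKM at day 3 (log2 fold change 3.15, SE 0.67, adjusted p = 0.0016). In these 3 genes D3 1 and D3 4 were more than 2 times as high as D3 2. Zbp1, a sensor that can trigger cell death, Ifi27l2a and Sp100 had log2 fold changes of 2.16, 1.30 and 1.29. Members that did not pass the test included Rsad2 (log2 fold change 2.38, adjusted p = 0.060) and Oas2 (log2 fold change 1.00, adjusted p = 0.11). The number of higher genes among the 30 depended on the libraries: 8 without NC 1 or D3 4, 11 without NC 2, 3 without NC 3 and 7 without D3 1. It was 13 with median-ratio scaling, 11 with no filter on low values and 28 with the lymphocyte level as a covariate. With the 7 libraries alone it was 29, and with the acinar covariate or the replicate number as a block it was 27. None was lower in any of these. Lost with 1 library left out were the calls of Oas3, Irf7 and Zbp1 without NC 3, Trim30a without NC 3 or D3 1, Isg15 and Ifi205 without NC 1, NC 3, D3 1 or D3 4 and Ifit2 without any 1 library but D3 2 and D3 3, while the calls of Ifi44, Ifi27l2a and Sp100 held.

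**Figure D4:**
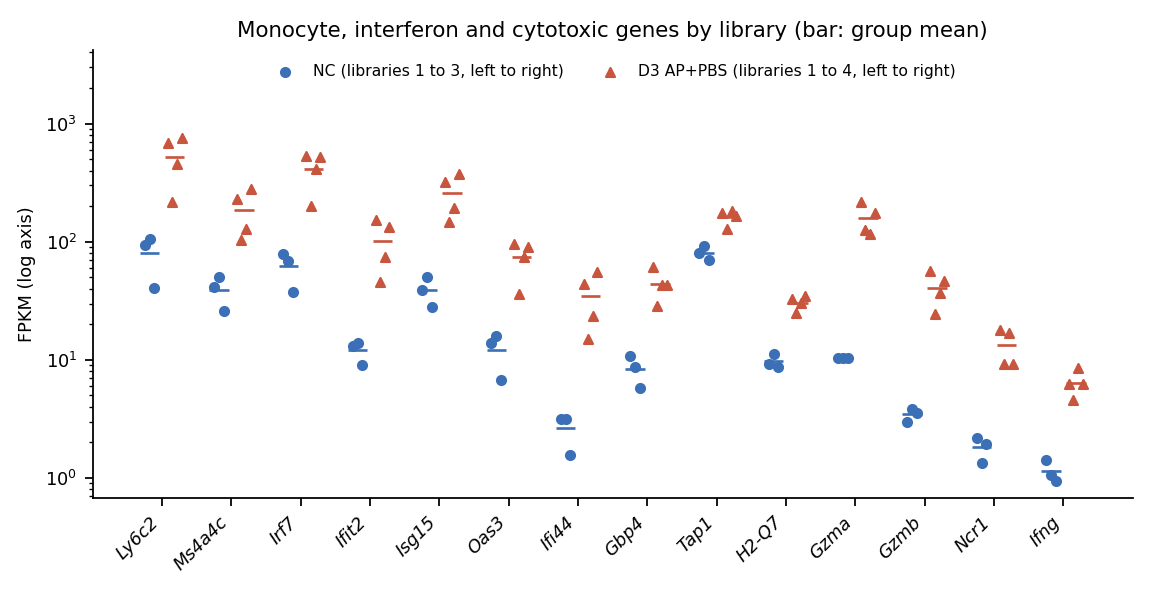
FPKM (log axis) of 14 monocyte, interferon and cytotoxic genes in each NC library (circles) and each D3 AP+PBS library (triangles), with bars at the group means. Each gene is higher in all 4 day 3 libraries than in all 3 NC libraries, and D3 2 is the lowest day 3 library for the 10 genes from Ly6c2 to H2-Q7.

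GTPases that interferon gamma induces were higher as well. Of 18 tested, 10 were higher and none lower (median 1.59). Gbp4, a guanylate-binding protein, read 10.8, 8.75 and 5.73 FPKM in NC and 60.8, 28.8, 43.4 and 43.1 FPKM at day 3 (log2 fold change 2.25, SE 0.61, adjusted p = 0.011). Igtp, an immunity-related GTPase that acts on pathogen vacuoles, read 34.5, 37.2 and 25.0 FPKM in NC and 137, 76.8, 103 and 128 FPKM at day 3 (log2 fold change 1.74, SE 0.53, adjusted p = 0.022). Both were higher without overlap. Gbp10 had a log2 fold change of 2.89, Gbp6 2.08, Tgtp1 2.47 and Irgm1 1.58, while Gbp2 (log2 fold change 1.42, adjusted p = 0.15) and Iigp1 (log2 fold change 1.603, adjusted p = 0.13) did not pass. Reads of Gbp6 and Gbp10 and of Tgtp1 and Tgtp2 can be shared between near-identical copies. The count of higher GTPases was 4 without NC 1, 1 without NC 3, 2 without D3 1 and 6 without D3 4. Without NC 3 the 1 call left was that of Gbp10, and those of Gbp4, Igtp, Gbp6, Tgtp1 and Irgm1 were lost. It was 4 with the lymphocyte covariate and 16 with the 7 libraries alone.

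Of 15 IRF and STAT factors 7 were higher and none lower. Stat2, which carries the signal of type I interferon together with Irf9, read 30.3, 27.7 and 21.7 FPKM in NC and 99.98, 44.4, 73.5 and 86.5 FPKM at day 3 (log2 fold change 1.44, SE 0.47, adjusted p = 0.031). Its groups did not overlap. Irf9, Irf1 and Stat4 had log2 fold changes of 0.68, 0.87 and 1.18. Irf3, a factor that infection activates without its gene being induced, and Irf5 were not called (log2 fold changes 0.16 and -0.20). Of the interferon receptor chains, Ifnar1 was lower by a small amount (log2 fold change -0.31, adjusted p = 0.021), and Ifnar2, Ifngr1 and Ifngr2 were not called (log2 fold changes 0.02, -0.20 and 0.03). The feedback inhibitor Socs1 was higher (log2 fold change 1.45, SE 0.46, adjusted p = 0.026), and Usp18, which blocks the receptor from inside, had a log2 fold change of 1.92. The factor count was 4 without NC 2 or D3 1 and 2 without NC 3, and 4 with median-ratio scaling. Calls lost with 1 library left out were those of Irf9 without NC 2, NC 3 or D3 1, Ifnar1 without NC 1, NC 3 or D3 2, Socs1 without NC 2, NC 3, D3 1 or D3 3, Stat2 and Usp18 without any 1 library but D3 2 and Irf1 without any 1 library, and the call of Stat4 held. The lymphocyte covariate ended the calls of Irf1, Ifnar1 and Socs1.

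Presentation on MHC class I was higher across the pathway: 14 of 20 genes were higher and none lower (median 0.70). Tap1, a chain of the peptide transporter, read 80.8, 92.6 and 69.7 FPKM in NC and 176, 128, 183 and 164 FPKM at day 3 (log2 fold change 0.99, SE 0.24, adjusted p = 0.0050). Psmb9, a subunit of the immunoproteasome, read 77.4, 92.5 and 67.7 FPKM in NC and 139.6, 146, 119.5 and 159.6 FPKM at day 3 (log2 fold change 0.83, SE 0.20, adjusted p = 0.0049). H2-Q7, a non-classical class I gene with close copies, read 9.28, 11.3 and 8.69 FPKM in NC and 32.6, 24.8, 30.0 and 34.4 FPKM at day 3 (log2 fold change 1.55, SE 0.39, adjusted p = 0.0064). None of these overlapped. Psme1, Psme2, Psmb8, Tap2 and the activator Nlrc5 had log2 fold changes of 0.76, 0.85, 0.60, 0.62 and 1.17. B2m, the light chain, had means of 2442 FPKM in NC and 3589 FPKM at day 3 and did not pass the test (log2 fold change 0.52, adjusted p = 0.13). The count was 9 without NC 1 or D3 1 and 6 without NC 3, 9 with median-ratio scaling and 8 with the lymphocyte covariate. With 1 library left out the calls of Tap1, Psmb9, H2-Q7 and Psme1 held, and those lost were Psmb8 and Tap2 without NC 3, Nlrc5 without NC 3 or D3 1 and Psme2 without NC 1, NC 3, D3 2 or D3 4. Adding the lymphocyte covariate left H2-Q7, Psme2, Psmb8, Tap2 and Nlrc5 uncalled.

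Most MHC class II genes were uncalled. Of 11 tested 0 were higher and 1 was lower, the loading factor H2-DMa (log2 fold change -0.61, SE 0.17, adjusted p = 0.015). The lower count was 5 with the lymphocyte covariate, 2 with quantile normalization, acinar and Reg genes left out or the acinar covariate and 4 with median-ratio scaling, and the higher count was 2 with the 7 libraries alone. Cd74, the invariant chain, read 7402, 8523 and 7222 FPKM in NC and 4694, 5699.9, 4397 and 6572 FPKM at day 3, lower in every day 3 library but not called (log2 fold change -0.55, adjusted p = 0.064). The class II activator Ciita had a log2 fold change of -0.16 (interval -0.68 to 0.35). Among 15 costimulatory and checkpoint ligands, Cd274, the inhibitory ligand PD-L1, was higher at 15.4, 15.4 and 11.0 FPKM in NC and 52.0, 28.7, 37.1 and 49.3 FPKM at day 3 (log2 fold change 1.498, SE 0.51, adjusted p = 0.038), and the checkpoint receptor Vsir was lower (log2 fold change -0.65). Cd80, Cd86 and Cd40 were not called (log2 fold changes -0.28, -0.40 and 0.83). Of 18 dendritic cell markers 7 were higher and 2 lower, beside 10.3% and 10.9% of all genes. The higher count was 4 without NC 1, D3 1, D3 2 or D3 3 and 3 without NC 2 or NC 3. It was 2 with the lymphocyte covariate and 4 with no filter on low values. Clec9a and Xcr1, which mark the cross-presenting subset, had log2 fold changes of 1.25 and 0.86, and their partner factor Batf3 was lower (log2 fold change -0.54). The summed level of the dendritic cell markers was 799.5, 836 and 721 FPKM in NC and 1119.6, 1065, 961 and 1083 FPKM at day 3, with the day 3 libraries higher. The calls of Vsir and Clec9a held without each library in turn, and those lost were H2-DMa without NC 2, Batf3 without NC 2, D3 1 or D3 3, Cd274 without any 1 library but D3 2 and Xcr1 without any 1 library but D3 4. Uncalled with the lymphocyte covariate were Cd274, Vsir, Xcr1 and Batf3.

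Several receptors that sense bacteria were lower. Of 17 Toll-like receptors and adaptors 5 were lower and 1 higher, beside 10.9% and 10.3% of all genes. Tlr4, the lipopolysaccharide receptor, read 14.8, 15.8 and 19.4 FPKM in NC and 10.5, 6.41, 6.90 and 12.6 FPKM at day 3 (log2 fold change -0.84, SE 0.26, adjusted p = 0.022). Tlr5, the flagellin receptor, read 7.80, 4.97 and 9.08 FPKM in NC and 2.58, 1.18, 1.61 and 2.57 FPKM at day 3 (log2 fold change -1.47, SE 0.24, adjusted p = 1.1e-04). Neither overlapped. Ticam2 and Ly96, partners of Tlr4, had log2 fold changes of -0.84 and -0.73. Tlr3, which senses double-stranded RNA and is interferon-inducible, was higher (log2 fold change 1.00, SE 0.30, adjusted p = 0.019). The inflammasome genes Nlrp3 and Casp1 were not called (log2 fold changes -0.21 and 0.02), and Nlrc4, which acts downstream of flagellin, was lower (log2 fold change -0.64, SE 0.12, adjusted p = 4.0e-04). The lower count was 2 without NC 3 and 3 without D3 2 or D3 3 and 1 with the lymphocyte covariate. Lost with 1 library left out were the calls of Tlr3 without NC 2 or D3 1, Tlr4 without NC 3, D3 2 or D3 3 and Ly96 without any 1 library but D3 4, while the calls of Tlr5, Ticam2 and Nlrc4 held. Entered as a covariate, the lymphocyte level ended the calls of Tlr4, Ticam2 and Ly96.

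Transcripts of killer lymphocytes were higher at day 3. Of 17 cytotoxic genes 14 were higher and none lower (median 1.63), and of 21 T and NK cell markers 17 were higher and none lower (median 1.595). Gzma, a granzyme, read 10.4, 10.5 and 10.4 FPKM in NC and 218, 126, 117 and 176 FPKM at day 3 (log2 fold change 3.76, SE 0.48, adjusted p = 4.0e-06). Gzmb, the granzyme that activates caspases in target cells, read 2.98, 3.87 and 3.53 FPKM in NC and 56.2, 24.4, 36.8 and 46.2 FPKM at day 3 (log2 fold change 3.17, SE 0.48, adjusted p = 4.0e-05). Ncr1, a receptor of NK cells and related innate lymphocytes, read 2.20, 1.34 and 1.95 FPKM in NC and 17.9, 9.28, 16.8 and 9.29 FPKM at day 3 (log2 fold change 2.29, SE 0.32, adjusted p = 1.1e-05). The groups were apart in all 3. The pore protein Prf1, the granule gene Nkg7, the receptors Klrk1, Klrd1, Klrg1 and Klrb1c, the factor Eomes and the death ligand Fasl had log2 fold changes of 2.01, 2.15, 1.63, 1.44, 1.34, 1.64, 1.87 and 1.52. Genes of T cells were higher as well: Cd3e, Cd8a and Cd8b1 had log2 fold changes of 1.39, 1.45 and 1.595, while Cd4 was not called (log2 fold change 0.28). The 3 cytotoxic genes that were not called were Gzmk (log2 fold change 0.61, interval -0.65 to 1.88), Tbx21 (log2 fold change 0.91, adjusted p = 0.076) and Ccl5 (log2 fold change 0.83, adjusted p = 0.17), and Gzmc stayed under the filter on low values. With the level of T, NK and B cell markers as a covariate, 11 of the 17 cytotoxic genes and 8 of the 21 markers were higher, with medians of 1.19 and 0.39. The 21 markers are part of that covariate, so their count and median under it are no separate test. Without NC 3 the 2 counts were 12 and 8. Calls lost with 1 library left out were those of Cd8b1 without NC 3, Cd8a without NC 3 or D3 2 and Cd3e without any 1 library but NC 1 and D3 4, and the other calls named here held. The lymphocyte covariate ended the calls of Cd3e, Cd8a and Cd8b1.

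B cell genes gave 2 higher calls and 1 lower call in 15, beside 10.3% and 10.9% of all genes. The summed level of B and plasma cell markers was 596, 547 and 498 FPKM in NC and 727, 1094, 1124 and 653 FPKM at day 3, and the higher genes were the complement receptor Cr2 (log2 fold change 1.59) and Fcer2a (log2 fold change 1.35). Cd79a, part of the B cell receptor, read 109, 100.1 and 91.9 FPKM in NC and 213, 296, 266 and 203 FPKM at day 3 and was not called (adjusted p = 0.069). Tnfrsf17, the survival receptor of plasma cells, was lower, at 5.62, 5.21 and 6.69 FPKM in NC and 0.619, 1.21, 1.33 and 0.315 FPKM at day 3 (log2 fold change -1.91, SE 0.29, adjusted p = 3.2e-05). The plasma cell gene Jchain split the day 3 libraries, at 131, 128 and 109.8 FPKM in NC and 41.0, 164, 196 and 31.1 FPKM in D3 1 to D3 4, with D3 2 and D3 3 above and D3 1 and D3 4 below every NC library. The higher count was 0 with the lymphocyte covariate, 1 with no filter on low values or a pseudocount of 0.1 and 9 with the 7 libraries alone, and 1 without NC 1, NC 2, NC 3, D3 1, D3 2 or D3 3. The lower count was 7 with the lymphocyte covariate, which includes these markers themselves, and under it Fcer2a had a log2 fold change of -0.13. With 1 library left out the calls of Cr2 and Tnfrsf17 held, and those lost were Fcer2a without any 1 library but D3 4. Adding the lymphocyte covariate left Cr2 and Fcer2a uncalled. Neutrophil markers were low and overlapped between the groups, at 106, 153 and 238 FPKM in NC and 294, 73.8, 156 and 99.6 FPKM at day 3 for their sum, and S100a8 read 14.7, 21.9 and 47.3 FPKM in NC and 73.6, 12.6, 24.4 and 17.6 FPKM at day 3 (interval of the difference -1.44 to 1.48).

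Immediate-early genes, which cells switch on within minutes of a stimulus and also during tissue dissociation, were lower at day 3. Of 27 tested 13 were lower and 1 higher (median -0.70). Fos read 1821, 1557 and 1762 FPKM in NC and 792, 969, 998 and 1003 FPKM at day 3 (log2 fold change -0.87, SE 0.21, adjusted p = 0.0050). Jun, its partner in AP-1, read 437, 407 and 509 FPKM in NC and 172, 185, 168 and 190.4 FPKM at day 3 (log2 fold change -1.32, SE 0.20, adjusted p = 4.9e-05). The phosphatase Dusp1 read 1101, 842 and 1041 FPKM in NC and 365, 431, 427 and 478 FPKM at day 3 (log2 fold change -1.22, SE 0.26, adjusted p = 0.0017). All 3 were lower in every day 3 library, with day 3 values close together. The heat-shock gene Hspa1a, which can share reads with Hspa1b, read 38.8, 36.1 and 38.6 FPKM in NC and 6.96, 9.14, 8.31 and 9.73 FPKM at day 3 (log2 fold change -2.03, SE 0.37, adjusted p = 3.4e-04). Egr1, Klf2, Ier2 and Zfp36 had log2 fold changes of -1.16, -0.98, -0.84 and -0.70. Dusp2, a phosphatase of activated lymphocytes and myeloid cells, was higher (log2 fold change 1.15, SE 0.30, adjusted p = 0.0086), and Nr4a1 was not called (log2 fold change 0.19). The calls of Fos, Jun, Dusp1, Hspa1a, Klf2 and Zfp36 held without each library in turn, and those lost were Dusp2 without NC 3 and Egr1 and Ier2 without NC 1, NC 3 or D3 1. Uncalled with the lymphocyte covariate were Fos, Egr1, Ier2, Zfp36 and Dusp2.

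Growth factors linked to repair were lower in 6 of 14 cases and higher in none. Beside Igf1, these were Ccn1, a matricellular protein, at 111, 32.2 and 76.8 FPKM in NC and 2.45, 5.74, 2.15 and 1.02 FPKM at day 3 (log2 fold change -4.25, SE 0.47, adjusted p = 4.8e-07), the platelet-derived factors Pdgfb and Pdgfc (log2 fold changes -0.94 and -1.06), Vegfb (log2 fold change -0.93) and Tgfbi (log2 fold change -0.68), a matrix protein induced by TGF-beta. Vegfa, the main angiogenic factor, read 1.16, 1.01 and 1.14 FPKM in NC and 2.17, 3.22, 3.09 and 1.28 FPKM at day 3 and was not called (log2 fold change 0.67). Of 18 matrix proteases and inhibitors 4 were lower and 3 higher, beside 10.9% and 10.3% of all genes. Mmp9, a gelatinase, read 38.2, 58.0 and 65.4 FPKM in NC and 5.78, 2.62, 4.13 and 2.38 FPKM at day 3 (log2 fold change -3.56, SE 0.52, adjusted p = 2.1e-05). Mmp13, a collagenase, read 6.05, 4.67 and 6.54 FPKM in NC and 0.775, 0.332, 0.467 and 0.590 FPKM at day 3 (log2 fold change -2.13, SE 0.26, adjusted p = 1.9e-06). The membrane-bound Mmp14 was higher, at 10.3, 13.1 and 9.11 FPKM in NC and 36.6, 24.6, 29.6 and 56.3 FPKM at day 3 (log2 fold change 1.62, SE 0.35, adjusted p = 0.0018). Those 3 did not overlap. Timp2, an inhibitor that also helps Mmp14 activate Mmp2, was lower (log2 fold change -1.39), and Mmp2 and Timp1, which fibroblasts make, were higher from low levels (log2 fold changes 1.85 and 1.14). Fibroblast markers stood beside them, with 4 of 18 higher against 10.3% of all genes. Among them were Col1a1, at 3.84, 4.47 and 5.55 FPKM in NC and 27.1, 25.5, 33.4 and 14.1 FPKM at day 3, and Col3a1 (log2 fold changes 2.16 and 2.32). The fibroblast count was 1 without NC 1, D3 1, D3 2 or D3 3 and 0 without NC 2 or NC 3. It was 0 with the lymphocyte covariate, 1 with no filter on low values, 8 with quantile normalization or the acinar covariate and 13 with the 7 libraries alone. The higher count of the matrix proteases was 1 without NC 1, NC 3 or D3 2 and 1 with the lymphocyte covariate. Lost with 1 library left out were the calls of Pdgfc without NC 3 or D3 3, Tgfbi without NC 2, NC 3 or D3 2, Timp1 without NC 1, NC 3 or D3 2 and Mmp2, Col1a1 and Col3a1 without any 1 library but D3 4, while the calls of Ccn1, Pdgfb, Vegfb, Mmp9, Mmp13, Mmp14 and Timp2 held. Entered as a covariate, the lymphocyte level ended the calls of Pdgfc, Tgfbi, Timp2, Mmp2, Timp1, Col1a1 and Col3a1.

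Metabolic and housekeeping lists differed in their calls. Of 36 cell cycle genes 0 were higher and 1 lower (E2f1, -0.39), and the proliferation marker Mki67 had a log2 fold change of 0.14 (adjusted p = 0.86). With the 7 libraries alone 6 of the 36 were higher and 2 lower. Of 25 genes of glycolysis and hypoxia, Pdk1, a kinase that inhibits pyruvate dehydrogenase, was higher (log2 fold change 0.96, SE 0.19, adjusted p = 7.8e-04) and Pfkfb4 lower (log2 fold change -0.52). Ldha, which makes lactate, had a log2 fold change of 0.34 (interval -0.07 to 0.76). Among 12 genes of lactate transport and conversion the pyruvate carrier Mpc1 was higher (log2 fold change 0.29) and the lactate transporter Slc16a7 lower, at 5.34, 4.95 and 7.14 FPKM in NC and 3.27, 2.20, 2.14 and 2.76 FPKM at day 3 (log2 fold change -0.92, SE 0.20, adjusted p = 0.0021). Slc16a1 and Slc16a3, the other lactate transporters tested, were not called (log2 fold changes 0.72 and -0.24), and the lactate receptor Hcar1 was under 0.1 FPKM in each of the 7 libraries. The cytosolic isocitrate dehydrogenase Idh1 and the mitochondrial Idh2 were lower (log2 fold changes -0.72 and -0.79). Of 33 respiratory chain subunits the 1 called was cytochrome c, Cycs (log2 fold change 0.81). Ribosomal protein genes had 6 of 36 higher (median 0.40) and constitutive proteasome genes 6 of 23 (median 0.27), beside 10.3% of all genes. These 2 counts were 3 and 0 with median-ratio scaling, 15 and 6 with the acinar covariate, 7 and 2 with the 7 libraries alone and 3 and 4 with no filter on low values. Both were 0 with the lymphocyte covariate and without NC 1 or NC 3. Without D3 2 they were 0 and 1, and without D3 4 they were 2 and 1. Of 22 genes of endoplasmic reticulum stress none was called by limma, beside 10.3% of all genes higher and 10.9% lower. An unadjusted limma p under 0.05 was reached by 4 (Canx, Ddit3, Sdf2l1 and Trib3). The share of all genes at that unadjusted limit is not given here, so these 4 show no difference of the list. With median-ratio scaling 1 of the 22 was lower. Calls lost with 1 library left out were those of Idh1 without NC 2 or NC 3, Cycs without NC 1 or NC 3, E2f1 without NC 1, NC 2, NC 3 or D3 1, Mpc1 without any 1 library but D3 3 and D3 4 and Pfkfb4 without any 1 library but D3 3, and the calls of Pdk1, Slc16a7 and Idh2 held. The lymphocyte covariate ended the calls of Pfkfb4, Mpc1, Slc16a7, Idh1 and Cycs.

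Pancreatic transcripts were found in all libraries. Among 26 acinar genes 2 were lower and 1 higher, beside 10.9% and 10.3% of all genes. These small counts changed with the libraries. With D3 1 left out 0 were lower and 3 higher, with D3 2 left out 4 were lower and 1 higher, and with any 1 of the others left out 0 were lower and 1 higher. Cela1, an elastase, read 1028, 682 and 612 FPKM in NC and 90.3, 637, 127 and 245 FPKM at day 3, and Pnlip, the lipase, read 1233, 753 and 703 FPKM in NC and 95.1, 612, 143 and 203 FPKM at day 3. In both genes D3 2 was the highest day 3 library and overlapped or came near the NC range. Try5, a trypsinogen with near-identical copies, read 465, 269 and 346 FPKM in NC and 427, 4099, 1250.3 and 807 FPKM at day 3 and was not called (log2 fold change 1.71). The Reg lectins, which injured acinar cells secrete, were higher in 3 of 6 cases: Reg3b read 11.2, 3.25 and 9.32 FPKM in NC and 65.9, 719, 203 and 85.8 FPKM at day 3 (log2 fold change 4.39, SE 0.67, adjusted p = 4.5e-05). Reg3a, which shares sequence with Reg3b, read 1.73, 1.51 and 2.10 FPKM in NC and 14.5, 249, 52.8 and 16.1 FPKM at day 3 (log2 fold change 3.97, SE 0.79, adjusted p = 8.3e-04), and Reg3g had a log2 fold change of 2.54. Every day 3 library was higher than every NC library in these 3. With the acinar level as a covariate, 6 of the 6 were higher, and with D3 1 left out the count was 5. Without D3 2, the library with the highest acinar sum, the log2 fold change was 3.703 for Reg3b and 3.13 for Reg3a. With 1 library left out the calls of Reg3b, Reg3a, Reg3g and Prss1 held, and those lost were Cela1 and Pnlip without any 1 library but D3 2. Adding the lymphocyte covariate left Cela1 and Reg3g uncalled.

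A panel of 18 genes known from the acute phase, put together with the day 0 values of these data in view, was followed to day 3. Of these 2 were higher than NC at day 3 (Spp1 and Slfn4), 2 were lower (Fn1 and Ccl2) and 14 were not called. The shares over all genes tested were 10.3% higher and 10.9% lower. Arg1 had a mean of 6.31 ± 8.92 FPKM in NC (SD, n = 3), 690.4 ± 235 FPKM at day 0 (n = 5) and 15.3 ± 12.3 FPKM at day 3 with PBS (n = 4). Spp1 had 11.2 ± 3.32, 2015 ± 730.3 and 38.8 ± 10.8 FPKM, and Chil3, a chitinase-like lectin, had 65.5 ± 25.6, 1579 ± 308 and 82.5 ± 42.3 FPKM in the same groups. At day 3 these 3 means were far closer to NC than to day 0. The choice of the panel with day 0 values in view favoured this in advance. For genes that were not called, the 95% intervals of the log2 fold change at day 3 were -0.13 to 3.23 for Arg1, -0.59 to 1.10 for Chil3, -1.35 to 1.72 for S100a9, -0.22 to 1.77 for the matrix gene Thbs1, -0.78 to 1.45 for Vcan, -0.42 to 1.44 for Hp, -0.04 to 2.09 for Lcn2, -0.69 to 0.68 for Mmp8, 0.23 to 2.34 for Gpnmb and -0.28 to 0.51 for Hspa5. Changes of over 2 on that scale lay within the intervals of Arg1, Lcn2 and Gpnmb. The calls of Fn1 and Ccl2 held without each library in turn, and those lost were Slfn4 without NC 3 and Spp1 without NC 1, NC 3, D3 1 or D3 2. Uncalled with the lymphocyte covariate was Ccl2.

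Resident, lectin and lymphocyte genes followed other courses over the days. Lyve1 had a mean of 9.36 ± 4.85 FPKM at day 0, 16.1 ± 6.51 FPKM at day 1 with PBS (n = 6) and 15.1 ± 5.30 FPKM at day 3 with PBS, all far below the 285 FPKM of NC. Retnla had 12.98 ± 5.58, 71.7 ± 19.7 and 305 ± 153 FPKM, against 2623 FPKM in NC. Mgl2 had 1.03 ± 0.177, 7.34 ± 3.05 and 31.4 ± 11.2 FPKM against 273 FPKM. Gzma had 4.00 ± 0.929, 35.8 ± 32.1 and 159 ± 47.0 FPKM against 10.4 FPKM, so its highest mean of these 4 was that of day 3. Irf7 was already at 477 ± 152 FPKM at day 0, with 221 ± 295 FPKM at day 1. These groups share their NC libraries, and their differences from each other were not tested here. In the 4 libraries of day 3 with lactate, Lyve1 had 18.2 ± 6.89 FPKM, Retnla 166 ± 55.3 FPKM, Irf7 120.0 ± 68.4 FPKM and Gzma 61.7 ± 12.3 FPKM.

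**Figure D5:**
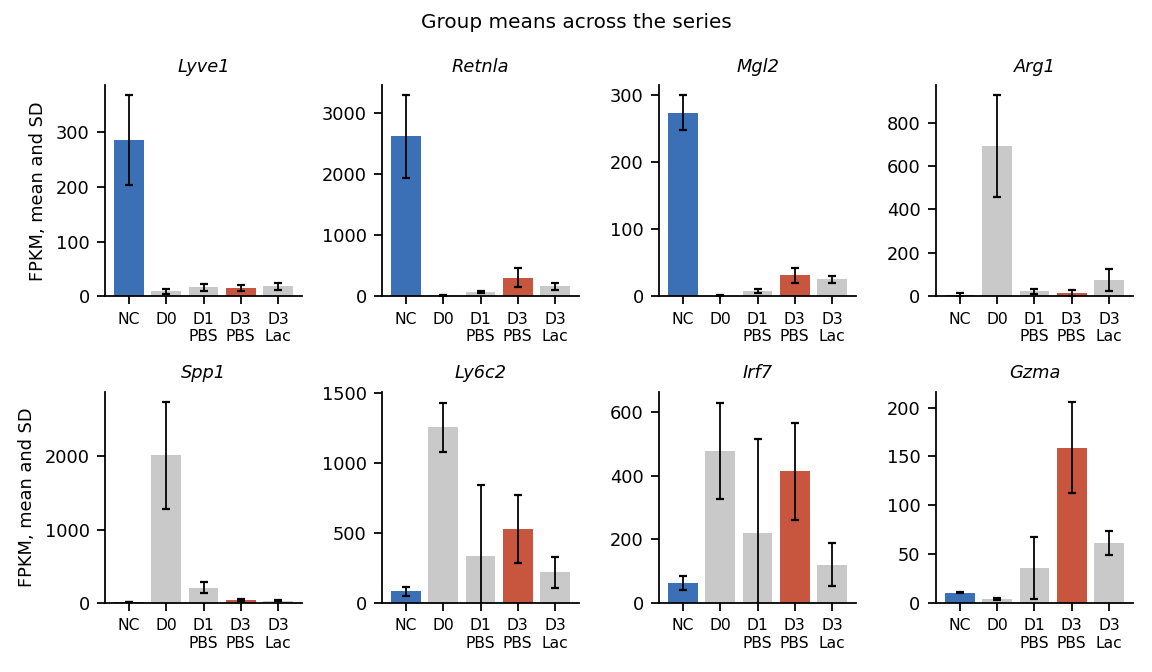
Mean FPKM and SD (bars and error lines, the lower part of an error line stops at 0) of 8 genes in NC (n = 3), D0 (n = 5), D1 AP+PBS (n = 6), D3 AP+PBS (n = 4) and D3 AP+Lac (n = 4). Lyve1, Retnla and Mgl2 are highest in NC, Arg1, Spp1, Ly6c2 and Irf7 at day 0, and Gzma at day 3 with PBS.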

How the data were processed

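RNA of 28 libraries of sorted pancreatic macrophages was deposited as 1 table of FPKM over 25301 genes, normalized by the authors to gene length and to the mapped fragments of a library. Fastp and R 3.2.0 are named in the submitters' processing notes, the aligner, the counting program, the genome build and the use of strand being not given in the sources used here. The header of 1 NC column is shortened to N with the number of the NC 2 title. FPKM steps of low genes returned whole fragments for 100% of the values above 0 at a tolerance of 0.0001, which gave the depths. Within NC and within D3 AP+PBS no pair of libraries was a duplicate (lowest chi-square per degree of freedom 29.6 over genes).

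Genes with at least 1 FPKM in at least 3 libraries were kept. Limma 3.58.1 (R 4.3.3, statmod 1.5.0) was fitted to log2(FPKM + 1) with 1 mean for each of the 6 groups, so that all 28 libraries shared 1 estimate of the spread, with trended and robust moderation, two-sided tests and Benjamini-Hochberg adjustment at 0.05. The fit was tested on simulated data. Tables and plots were made with Python 3.11.15 (numpy 2.4.6, pandas 2.3.3, matplotlib 3.10.9). Covariates (lymphocyte, acinar) were the mean log2(FPKM + 1) of the T, NK, B and plasma cell markers, or of the acinar markers.

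The 52 gene lists and the comparison were chosen with earlier results of these data known. Genes were named where they had the 15 highest or lowest log2 fold changes at a mean of at least 5 FPKM in either group, or the 10 largest rises or falls in mean FPKM. From each list the rule also admitted up to 6 members with the smallest p, all members of lists of up to 20 genes, up to 3 that went against the list, and both panels. Symbols made of Gm and a number or ending in Rik were left out, not every admitted gene is described, and a few are not reported here. Cbr2, Ccl7, Ccl8, Cd3e, Cd4, Cxcl9, Cxcl10, Ednrb, Egr1, F13a1, Fcna, Folr2, Ier2, Il6, Il10, Itgb5, Lrp1, Mki67, Nr4a1, Oas2, Rsad2, Stab1, Tnf and Zfp36 lay outside it and were named after their values were seen. Promoters were taken from RefSeq (GRCm38.p6) by symbol, for the 4 interferon-stimulated genes with the smallest p whose window held the searched core.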

Additional observations from a re-analysis of the deposited data

Results flagged for a closer look

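Among the 4 D3 AP+PBS libraries, a value was set apart where its gap to the nearest of the other 3 exceeded, as a share of the group's whole range, the 95% critical value of Dixon's test for 4 samples, a limit that chance passes in about 1 group of 20. Of 284 gene and marker list values checked, 13 did so. D3 2 was the high library in 5 of them. Its summed FPKM of the Reg lectin genes was 4576 against 1058 in the next library, and that of the islet markers was 60.2 against 2.16. Its Reg3a read 249 FPKM (next 52.8), its Cd209f 18.9 FPKM (next 9.06) and its Trib3 1.64 FPKM (next 0.806). Nlrp3 was low in D3 2, at 9.30 FPKM against 13.4 in the nearest library.

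In D3 1, Fos was low at 792 FPKM (nearest 969), Cftr was at 0 FPKM (nearest 0.0573) and Ly6c1 was high at 25.8 FPKM (nearest 13.9). In D3 3, Selenop was low at 501 FPKM (nearest 811), and the summed FPKM of the fibroblast and stellate cell markers was high at 1012 (nearest 910.2). In D3 4, Ccl7 was high at 116 FPKM (nearest 65.7) and Pdk1 was low at 9.70 FPKM (nearest 13.3).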

How the results depend on the processing

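The 1236 higher and 1299 lower genes were recomputed under 18 alternatives. The higher count was 809 with median-ratio scaling and 552 with the lymphocyte covariate, and between 393 and 1198 with 1 library left out. The lower count lay between 795 and 1230 with 1 library left out and within 1.5 times of 1299 in the other alternatives. The cause of these differences was not tested. Of 196 genes named and called, 88 kept their call in every alternative in which they were tested. The lymphocyte covariate turned the sign of 23 of the 267 named genes tested. Of the called genes 83 lost their call under it. Among the sign changes, 3 involved a called value: Cd3e had a log2 fold change of -0.022, Fcer2a -0.13 and Cd4, called under the covariate alone, -0.95. All 3 are among the markers that make up the covariate.

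With the replicate number as a block (replicate block), 1465 genes were higher and 1295 lower, and 12 of 18 fibroblast and stellate cell markers were higher. Deviations of same-numbered libraries correlated at 0.041, -0.040 and -0.079 between the groups, and those of differently numbered libraries at -0.298 to 0.284. With so few libraries these values cannot show whether the numbers paired the samples.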
